A study of Mus musculus with 20 samples.

Results

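The AP-1 genes described here are Fos, Fosb, Fosl2, Jun, Junb, Jund, Atf3 and Maff, 8 of the 21887 protein-coding genes to which peaks could be linked. They form a named list, chosen with earlier results of these data known but without a threshold on a measured value. For each gene, every p65 or SOCS1 peak was taken whose centre lay inside the gene or at most 10 kb from either end of it in the mm10 build. This gave 193 of the 258959 peaks in 12 lists. Peaks that overlapped by at least 1 bp, whatever their list, were joined into a site, and 58 of the 96700 sites of the whole series belonged to these genes.

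AP-1 is a family of dimeric transcription factors with a basic leucine zipper. FOS proteins bind DNA only with a partner, usually a JUN protein, while JUN proteins can also pair with each other, and ATF3 and the small MAF proteins join the same network of dimers. Several of the genes are immediate-early genes, which are transcribed soon after a stimulus without new protein synthesis. In macrophages, lipopolysaccharide (LPS) is sensed by TLR4, which activates MAP kinases that act on AP-1 genes and proteins, and NF-κB, whose subunit p65 (RELA) enters the nucleus. SOCS1 is best known as an inhibitor of JAK kinases and part of a ubiquitin ligase.

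The libraries are CUT&RUN, in which an antibody directs a nuclease to chromatin and the released fragments are sequenced. Macrophages were grown from mouse bone marrow with M-CSF and were wild type (WT) or knockout (KO). The design text gives the background of the WT cells as C65BL6 and the knocked-out gene as NOS1, whereas the title concerns SOCS1, so the disrupted gene is not settled and the KO libraries are named by that label only. For each genotype there were untreated control cells, cells exposed to LPS at 100 ng/mL for 30 min and cells exposed for 8 h. Each of the 12 combinations of antibody, genotype and treatment had 1 library, and the number of mice behind a library is not given in the labels. Differences between groups could therefore not be tested, and intervals are for counting error alone. Cells were measured in bulk, so more cells with the protein at a site and more protein per cell cannot be told apart.

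Depth ranged from 6.93 to 18.4 M tags (10 M are 10000000), and the width given to all peaks of a list ranged from 222 to 493 bp. Values are the authors' normalised tag counts, the tags in a peak scaled to a library of 10000000 tags, so a wider peak holds more tags at the same density. A site without a peak in a list was not called there, which does not show that it was unbound. In KO control cells the IgG control was at its floor under 11 of 12 p65 peaks and 8 of 11 SOCS1 peaks at these genes. In any other list it was so under at most 8 of 23 (p65, WT, 8 h). Over all peaks of a list the share was 91.4% for p65 and 88.0% for SOCS1 in KO control cells. It was 14.7% to 43.0% in the other lists. Of 8 macrophage marker genes, 6 to 8 had a peak in every list, although a peak is not a measure of expression. Neutrophil markers had peaks at 1 to 3 of 6 genes in 11 lists and at 5 of 6 in the p65 KO list at 30 min. Of all genes, 32.4% to 65.4% had a peak, depending on the list, and the share was highest in that p65 KO list. Whether other cells contributed to the values below was not tested. Nos1 had no peak in any WT list and a highest value of 147.3 in the KO lists, while Socs1 had peaks in 10 of the 12 lists, among them 4 KO lists.

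LPS was accompanied by p65 peaks at all 8 genes. Without LPS, WT cells had such a peak at 3 of the 8, namely Fos, Junb and Atf3, and at 32.7% of all genes. At 30 min all 8 had one (61.9% of all genes), and at 8 h all 8 again (55.9%). The 5 genes without a control peak, Fosb, Fosl2, Jun, Jund and Maff, had one at both times, where 46.4% and 38.9% of all genes without a control peak did. In KO cells 7 of the 8 had a p65 peak in the control list (35.8%), 8 at 30 min (65.4%) and 7 at 8 h (55.5%), Fos being without one in control cells and Atf3 at 8 h.

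SOCS1 was called near most of the genes already without LPS. In WT control cells all 8 had a SOCS1 peak, beside 32.4% of all genes. The count was 8 at 30 min (47.7%) and 6 at 8 h (38.6%), when Atf3 and Maff had none. The KO lists counted 7 genes in control cells (55.3%), all but Junb, then 8 at 30 min (51%) and 8 at 8 h (44.6%). Control peaks in WT cells were low, with a median of 21.6 normalised tags at these genes against 24.5 over all peaks of the list, and 8 genes shared 9 peaks. In every other list, of either antibody, the median at these genes was above that of all peaks. For p65 at 30 min it was 58.9 in WT and 52.1 in KO cells, against 23.6 and 21.4. For p65 in KO cells at 8 h it was 64.1 against 30.5, and for SOCS1 in KO control cells 68.3 against 29.2.

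The 58 sites were spread unevenly. Fosb had 10, Junb, Atf3 and Maff 9 each, Fos 7, Fosl2 6, Jun 5 and Jund 3. Both antibodies called 27 of the sites, p65 alone 17 and SOCS1 alone 14. Only 22 sites (37.9%) were in a single list, compared with 51.9% of all sites, and 7 (12.1%) were in at least 8 lists, compared with 7.01% of all. Within 1 kb of a start site of their gene lay 13 sites, 16 lay inside the gene, and 12 were nearer to the start of another gene. Peaks also lay just beyond the 10 kb limit. Nearest to it at Fos were a SOCS1 peak of 18.0 inside, at 9980 bp, and a p65 peak of 15.5 outside, at 10357 bp, both in KO cells at 8 h. At Maff they were p65 peaks in KO cells of 8.68 inside (9478 bp, 30 min) and 27.3 outside (10817 bp, 8 h).

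**Figure D1:**
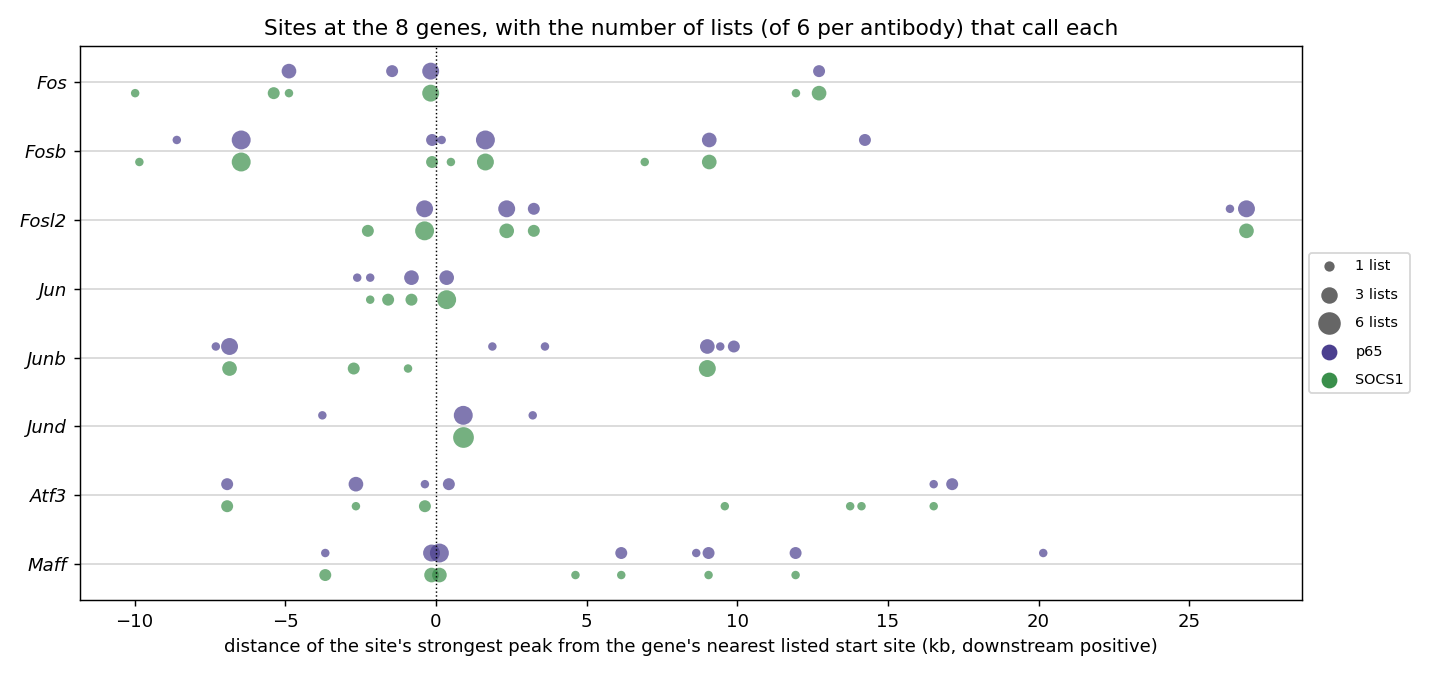
Position of the 58 sites, as the distance in kb of the strongest peak of a site from the nearest listed start site of its gene (x axis), for each gene (y axis). Purple points above each line are p65 and green points below it SOCS1, and the size of a point gives the number of lists of that antibody that called the site. Jund has a single large pair of points downstream of its start, whereas the points of Atf3 and Junb are small and scattered.

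The 3 FOS genes of the list each had a peak at or next to the start site. The promoter windows of RefSeq (GRCm38.p6, the same assembly as mm10), 250 bases before to 50 after the start, are shown for them because each holds a match to the NF-κB motif, in capitals and searched on both strands. Such a match occurs in 4.81% of 21263 promoter windows and is a description of the letters, not a measured binding site. In Fos (chr12:85473640-85473939, plus strand) the second run of capitals is the TATA motif TATAAA, found in 12.6% of windows. Fosb lies at chr7:19309996-19310295 on the minus strand and Fosl2 at chr5:32136222-32136521 on the plus strand, where 2 matches overlap.
Fos: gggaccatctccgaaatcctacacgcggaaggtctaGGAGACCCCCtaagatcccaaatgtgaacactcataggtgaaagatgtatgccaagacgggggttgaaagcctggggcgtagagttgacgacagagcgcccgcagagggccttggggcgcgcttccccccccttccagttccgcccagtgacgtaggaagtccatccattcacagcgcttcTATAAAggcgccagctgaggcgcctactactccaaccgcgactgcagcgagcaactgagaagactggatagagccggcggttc
Fosb: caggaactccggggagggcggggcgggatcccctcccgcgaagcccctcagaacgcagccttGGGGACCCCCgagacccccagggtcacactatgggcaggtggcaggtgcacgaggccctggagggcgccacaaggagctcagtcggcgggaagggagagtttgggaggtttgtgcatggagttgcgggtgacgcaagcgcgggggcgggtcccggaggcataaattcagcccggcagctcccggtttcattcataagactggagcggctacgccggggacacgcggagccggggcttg
Fosl2: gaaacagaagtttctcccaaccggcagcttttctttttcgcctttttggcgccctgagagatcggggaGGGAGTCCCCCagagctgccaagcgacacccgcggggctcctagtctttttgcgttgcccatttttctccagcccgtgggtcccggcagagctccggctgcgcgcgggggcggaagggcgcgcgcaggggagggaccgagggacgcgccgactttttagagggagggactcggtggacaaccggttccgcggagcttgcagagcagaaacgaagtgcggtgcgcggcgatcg
The match began 214 bases upstream of the Fos start, 188 bases upstream of the Fosb start and 182 bases upstream of the Fosl2 start. Peaks lay over it in 6 lists at Fos (3 of p65 and 3 of SOCS1), 4 at Fosb and 1 at Fosl2, a SOCS1 list. None of the 10 windows of the 8 genes held the AP-1 motif TGANTCA, present in 6.99% of all windows, or the CArG box, present in 1.52%. This says only that these letters are not in the windows.

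Fos (gene 14281, chr12:85473890-85477274, plus strand) encodes FOS, a subunit of AP-1. Its main site lay over the promoter, with the strongest peak centred 173 bp upstream of the start. No p65 peak was called there in control cells of either genotype. After LPS the p65 values were 103.2 at 30 min and 38.7 at 8 h in WT cells, and 128.0 and 59.1 in KO cells. The later value was lower in both genotypes, by a ratio of 0.375 (95% interval 0.259 to 0.537) in WT and 0.462 (0.345 to 0.61) in KO cells. By the score scaled to depth, which counts no more than 1 tag per bp, the KO difference of -1.11 on the log2 scale became 0.04. SOCS1 at the same site was 93.9 at 30 min and 55.7 at 8 h in WT cells, without a control peak, and in KO cells 72.0 in control cells and 99.4 at 30 min, without a peak at 8 h. The KO peak at 30 min did not overlap the KO control peak, its centre lying 513 bp away and the peak outside the promoter window, so these values are from different places. The SOCS1 ratio of 8 h to 30 min in WT cells was 0.593 (0.417 to 0.846). In WT control cells the only p65 peak of Fos was elsewhere, 1453 bp upstream with 29.9 tags, at a site that reached 66.2 in KO cells at 30 min. A second LPS site 12715 bp downstream of the start, beyond the end of the gene, held p65 peaks at 30 min of 45.0 in WT and 36.3 in KO cells and SOCS1 peaks of 21.6 and 58.8.

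Fosb (gene 14282, chr7:19302696-19310118, minus strand) encodes a FOS paralogue. It had the most sites and the most locally enriched peaks, and its 2 leading sites were away from the promoter, 6461 bp upstream of the start and 1643 bp downstream of it inside the gene. At the upstream site p65 was not called in WT control cells and measured 90.8 at 30 min and 55.2 at 8 h. In KO cells it was 37.6, 147.3 and 58.2 over the 3 treatments, so the KO value at 30 min was 3.92 times the control value (2.73 to 5.82) and 1.62 times the WT value (1.31 to 2.03). By scaled score these differences, 1.97 and 0.70 on the log2 scale, were 1.31 and 0.03. SOCS1 at this site was nearly level in WT cells, at 41.8, 46.2 and 41.0 over the 3 treatments, and measured 71.4 and 78.5 in KO control and 30 min cells, with no peak at 8 h.
Inside the gene, p65 was 130.2 at 30 min and 84.0 at 8 h in WT cells, and 54.1, 116.6 and 101.4 over the 3 treatments in KO cells. The highest SOCS1 value of Fosb was at the same place, 162.5 in KO cells at 30 min, between 126.6 in control cells and 110.7 at 8 h. WT cells had a SOCS1 peak there at 8 h alone, of 38.9, which the KO value exceeded 2.85 times (1.91 to 4.3). At the promoter, 127 bp upstream of the start, p65 was 97.4 in KO cells at 30 min and 33.5 in WT cells at 8 h, and SOCS1 was 38.0 at 30 min and 18.9 at 8 h in WT cells alone.

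Fosl2 (gene 14284, chr5:32136472-32157840, plus strand) encodes FRA2, a FOS-related protein. Its promoter-proximal site, 375 bp upstream of the start, was in 9 lists. There p65 was 62.3 at 30 min and 26.9 at 8 h in WT cells, a ratio of 0.432 (0.266 to 0.658), and 29.6 in control and 52.1 in 30 min KO cells. SOCS1 was 28.7 and 18.9 in WT cells at the LPS times, and 38.5, 90.6 and 74.0 over the treatments in KO cells. The KO values were thus 3.16 times (2.04 to 5.06) and 3.92 times (2.29 to 7.11) the WT values at 30 min and 8 h, and 1.8 and 2.72 times per bp of peak width. Inside the gene, 3249 bp from the start, p65 was called only at 30 min, at 60.4 in WT and 99.8 in KO cells, while SOCS1 was called only in WT cells, at 29.2 and 21.6. The neighbouring site 2349 bp from the start differed in its time course between genotypes. Its p65 value was 84.4 at 30 min and 49.1 at 8 h in WT cells, but 53.4 and 79.1 in KO cells, a ratio of 1.48 (1.1 to 2.01) that becomes 0.668 per bp of peak width because the KO 8 h peaks are wider. Beyond the end of the gene, 26898 bp from the start, p65 was 47.3 and 29.3 at 30 min and 8 h in WT cells. In KO cells it was 14.6 and 66.4. The centres of these peaks lay 720 bp apart in WT and 336 bp apart in KO cells, and the 2 WT peaks did not overlap.

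Among the JUN genes, Jun and Jund had their leading site inside the gene, within 1 kb of the start. The highest p65 and SOCS1 peaks of Junb lay farther from its start. Jun (gene 16476, chr4:95049036-95052222, minus strand) encodes the JUN subunit that pairs with FOS. Its site 357 bp downstream of the start measured 116.4 for p65 at 30 min and 51.9 at 8 h in WT cells, a ratio of 0.446 (0.322 to 0.611). In KO cells p65 was called there only at 30 min, at 65.9, which is 0.566 times the WT value (0.441 to 0.72). For SOCS1 the order of the genotypes was the opposite, with 60.5 in WT and 182.3 in KO cells at 30 min, a ratio of 3.01 (2.22 to 4.12), or 1.72 per bp. That SOCS1 value was the highest at any of the 8 genes, and it stood between 68.3 in KO control cells and 73.3 at 8 h. A second site 811 bp upstream of the start was called after LPS alone, for p65 at 86.3 and 34.9 in WT cells and 69.1 in KO cells at 8 h, and for SOCS1 in KO cells at 109.3 and 52.1. Farther upstream, SOCS1 in KO control cells was 108.0 at 1585 bp, above its value at the main site. At 2180 bp upstream p65 in KO cells at 8 h was 79.6.

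Jund (gene 16478, chr8:70697739-70700616, plus strand) encodes the JUN protein usually made without stimulation. It had the most widely called site of all 58, inside the gene 908 bp from the start, in 11 of the 12 lists. The missing list was p65 in WT control cells. There p65 was 90.1 and 57.6 at 30 min and 8 h in WT cells, and 26.7, 127.8 and 64.1 over the treatments in KO cells. SOCS1 was present without LPS, with 62.1, 96.5 and 47.3 in WT cells and 79.5, 85.1 and 66.9 in KO cells. The p65 value at 30 min in KO cells was 4.79 times that of KO control cells (3.18 to 7.87), whereas the SOCS1 value was 1.07 times (0.754 to 1.51). By scaled score this p65 difference, 2.26 on the log2 scale, was 1.33. Its p65 value in KO cells at 30 min was 22.55-fold over the surrounding 10 kb.

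Junb (gene 16477, chr8:84976909-84978748, minus strand) encodes a JUN protein with weaker activity of its own and rapid induction by many stimuli. Its tallest peaks were each called at a different place. The highest p65 value, 133.6 in KO cells at 8 h, lay 3619 bp downstream of the start in that list alone. SOCS1 reached 181.4 in KO and 78.9 in WT cells at 8 h, at a site 2727 bp upstream that no other list called. A SOCS1 peak of 108.8 in WT cells at 30 min, 925 bp upstream, was again in 1 list. These peaks were 4.13-fold, 4.66-fold, 4.03-fold and 4.73-fold over the surrounding 10 kb, close to the minimum of 4-fold that the authors required. The 2 sites called in 7 lists each were farther off. One, 6848 bp upstream of the start, held p65 at 39.7 in control and 79.8 in 8 h WT cells and at 29.0 and 110.9 in control and 30 min KO cells, and is nearer to the start of Hook2. SOCS1 was called there in WT cells alone, at 54.1, 81.6 and 65.2 over the treatments. The other, 9007 bp downstream, lies inside Prdx2, a peroxiredoxin gene, 119 bp from its start. This site held p65 after LPS alone, at 52.5 and 41.1 in WT and 34.4 in KO cells at 30 min. SOCS1 was also called there after LPS alone, at 21.6 and 18.4 in WT and 60.4 and 46.3 in KO cells. Peaks there cannot be assigned to Junb rather than Prdx2.

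Atf3 (gene 11910, chr1:191170296-191183333, minus strand) encodes a stress-induced factor that limits cytokine transcription in macrophages. It was the only other gene besides Junb whose peaks had a local median under 5-fold, at 4.69 with 15 of 20 peaks under that value. Its 9 sites were in at most 4 lists each. Near the start, 365 bp upstream, p65 was 74.7 in WT cells at 30 min, and SOCS1 was 67.0 in control and 113.7 in 30 min KO cells, a ratio of 1.7 (1.21 to 2.41). At 2654 bp upstream p65 was 25 in control and 87.3 in 30 min KO cells, a ratio of 3.49 (2.23 to 5.72), and 46.7 in WT cells at 8 h. The site 6927 bp upstream held the highest WT p65 value of the gene, 79.9 at 30 min, beside 73.5 in KO cells and a SOCS1 peak of 45.2 in WT cells. At 8 h SOCS1 in KO cells was 54.7 there, and also 54.7 at the site 2654 bp upstream. No p65 peak in KO cells and no SOCS1 peak in WT cells was called at Atf3 at 8 h.

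Maff (gene 17133, chr15:79346621-79359078, plus strand) encodes a small MAF protein, which lacks an activation domain and works through its partners. RefSeq lists 3 start sites, and peaks overlapped the windows of the second and the third but not of the first. Both windows are shown because they hold different motifs, the CRE motif TGACGTCA (2.23% of all windows) at 29 bases upstream of the second start (chr15:79347270-79347569) and an NF-κB match at 70 bases upstream of the third (chr15:79348152-79348451), both windows being read on the plus strand. The NF-κB match is on the minus strand, so the printed letters are its reverse complement.
Maff, start 2: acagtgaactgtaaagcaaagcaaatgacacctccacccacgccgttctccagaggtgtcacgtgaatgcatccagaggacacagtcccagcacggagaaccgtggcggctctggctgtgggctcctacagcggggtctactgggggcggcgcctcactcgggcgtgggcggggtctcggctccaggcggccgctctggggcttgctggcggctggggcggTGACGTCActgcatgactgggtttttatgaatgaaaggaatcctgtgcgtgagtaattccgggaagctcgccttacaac
Maff, start 3: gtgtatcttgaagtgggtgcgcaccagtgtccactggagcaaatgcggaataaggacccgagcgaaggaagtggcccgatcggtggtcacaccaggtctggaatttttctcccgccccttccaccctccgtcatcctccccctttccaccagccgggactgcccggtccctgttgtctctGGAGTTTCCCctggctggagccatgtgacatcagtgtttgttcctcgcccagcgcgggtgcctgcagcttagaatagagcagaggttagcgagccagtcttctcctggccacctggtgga
Peaks overlapped the second window in 7 lists and the third in 8. Over the CRE match itself they lay in 4 lists, 2 of p65 in WT cells after LPS and 2 of SOCS1 in control cells. Over the NF-κB match they lay in 3 lists, p65 in KO cells at 8 h and SOCS1 in KO cells at both LPS times. No WT peak and no p65 peak at 30 min covered the NF-κB match. At the site of the third window p65 was 54.8 at 30 min and 25 at 8 h in WT cells, and 29.6, 92.0 and 30.5 over the treatments in KO cells. SOCS1 there was 20.0 in WT cells at 30 min and 58.2 and 21.2 in KO cells at the LPS times. At the second window p65 was 57.4 and 28.8 in WT and 56.7 and 37.7 in KO cells after LPS. It was not called in control cells of either genotype. The KO peak at 8 h (chr15:79346788-79347280) was centred 334 bp from that at 30 min and reached only the first bases of the window. SOCS1 was called there without LPS, at 20.2 in WT and 25.4 in KO cells, and at 22.1 in WT cells at 30 min. In WT cells the p65 ratio of 8 h to 30 min was 0.456 (0.275 to 0.71) at the third and 0.502 (0.314 to 0.767) at the second window. The WT peaks joined at the third did not overlap, their centres being 350 bp apart.

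**Figure D2:**
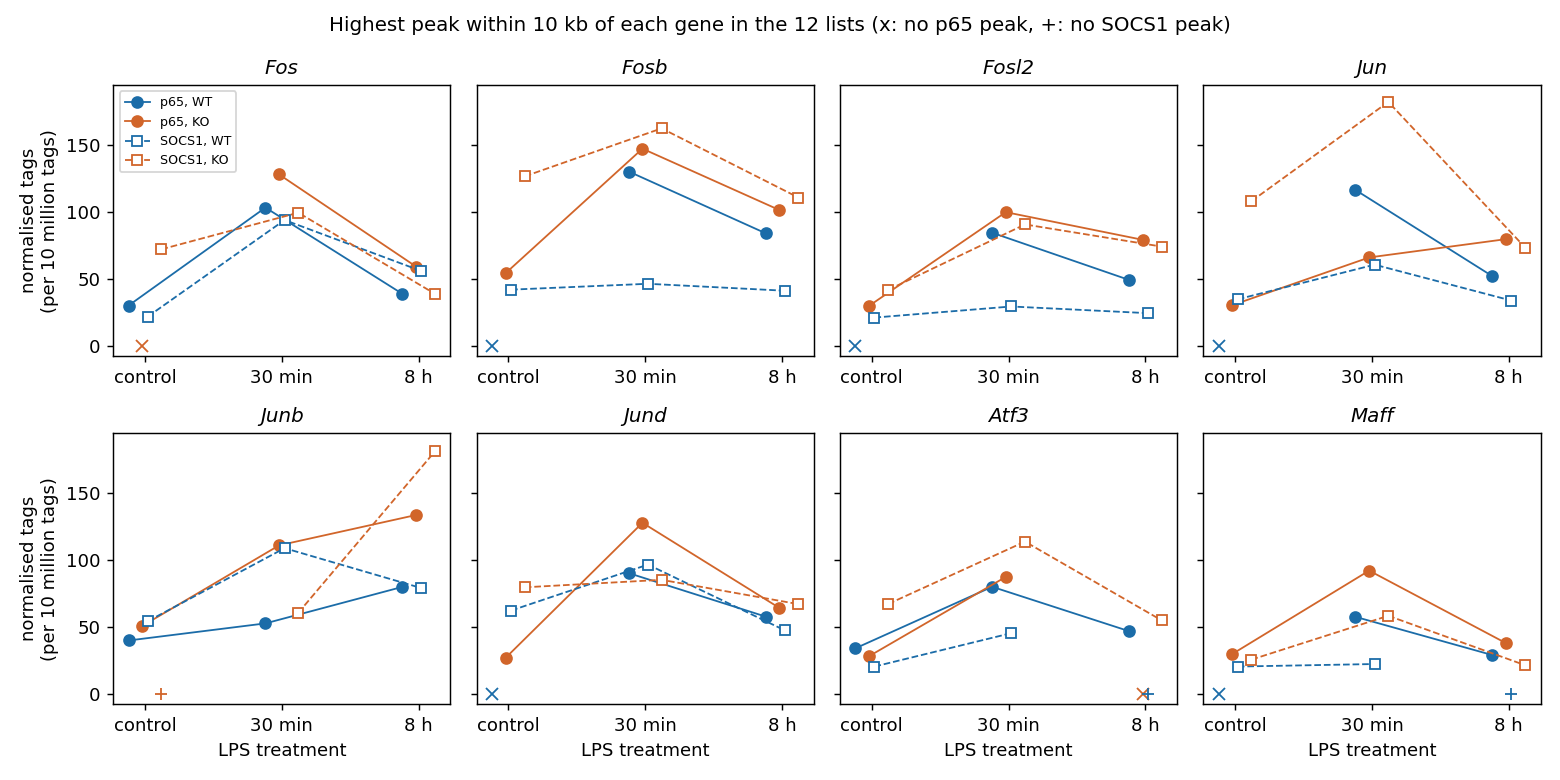
Highest normalised tag count (y axis, per 10000000 tags) of any peak in the window of each gene against treatment (x axis), with p65 as filled circles, SOCS1 as open squares, WT in blue and KO in orange. Each point is 1 library and a cross or plus at 0 marks a list without a peak. In WT cells p65 was highest at 30 min for every gene but Junb, where 8 h was higher (79.8 against 52.5).

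At 30 min, no p65 site of these genes in WT cells had a control peak. Most p65 sites of the whole list had none either. The WT control list held 9643 peaks, from 7.69 M tags with 2.12% of them in peaks. The 30 min list held 36030, from 13.3 M tags with 13.18% in peaks. Of the 22 member sites called at 30 min, 0 were also in the WT control list (0.0%, exact 95% interval to 15.4), beside 14.2% of all p65 sites at 30 min. The 3 control sites, at Fos, Junb and Atf3, were likewise not called at 30 min, although 52.8% of all control sites were. In KO cells 8 of 29 sites at 30 min were in the control list (27.6%, 12.7 to 47.2), beside 14.6% of all. All 8 were higher at 30 min, where 82.2% of all such sites were, and 6 were at least 2-fold higher, where 46.6% were. At 2 of those 6, Maff at the third start and Junb 6848 bp upstream, the peaks of the 2 lists did not overlap, with centres 408 and 304 bp apart. The remaining 6 sites were all higher, 4 of them at least 2-fold. The median ratio was 3.3 at the members and 1.88 over all sites in both lists.

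Between 30 min and 8 h the p65 values in WT cells were lower at each shared site. Of the 23 sites at 8 h, 9 were not called at 30 min and give no ratio, and 60.9% were shared, beside 60.2% of all. Of the 22 sites at 30 min, 8 were not called at 8 h, and 63.6% were shared, beside 51.4% of all. Of 14 sites called at both times, 14 were lower at 8 h (75.8% of all sites in both lists) and 5 were at least 2-fold lower (22.3%), namely the promoter sites of Fos and Fosl2, both Jun sites and the Maff site at the third start. The 2 peaks did not overlap at that Maff site and at Fosl2 26898 bp downstream, and at the other 12 sites 12 were lower, 4 at least 2-fold. The median ratio was 0.542, compared with 0.702 over all sites. Intervals of 12 of the 14 ratios lay below 1, the exceptions being Fosb 9071 bp and Junb 9007 bp downstream. The ratio was also below 1 at all 14 by scaled score, by the sum of peaks and per bp of peak width. The size of the fall depended on the measure. By scaled score the log2 values were -0.66 rather than -1.42 at Fos and -0.92 rather than -1.21 at the Fosl2 promoter. They were -0.32 rather than -1.17 at Jun 357 bp downstream and -0.54 rather than -1.13 at that Maff site. None of these sites was then 2-fold lower. In KO cells 7 of 10 sites were lower at 8 h, beside 36.9% of all, with a median of 0.688 against 1.22. Because KO 8 h peaks were 493 bp wide and KO 30 min peaks 222 bp, the same medians per bp were 0.311 and 0.551, and by scaled score 4 of the 10 sites were lower.

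**Figure D3:**
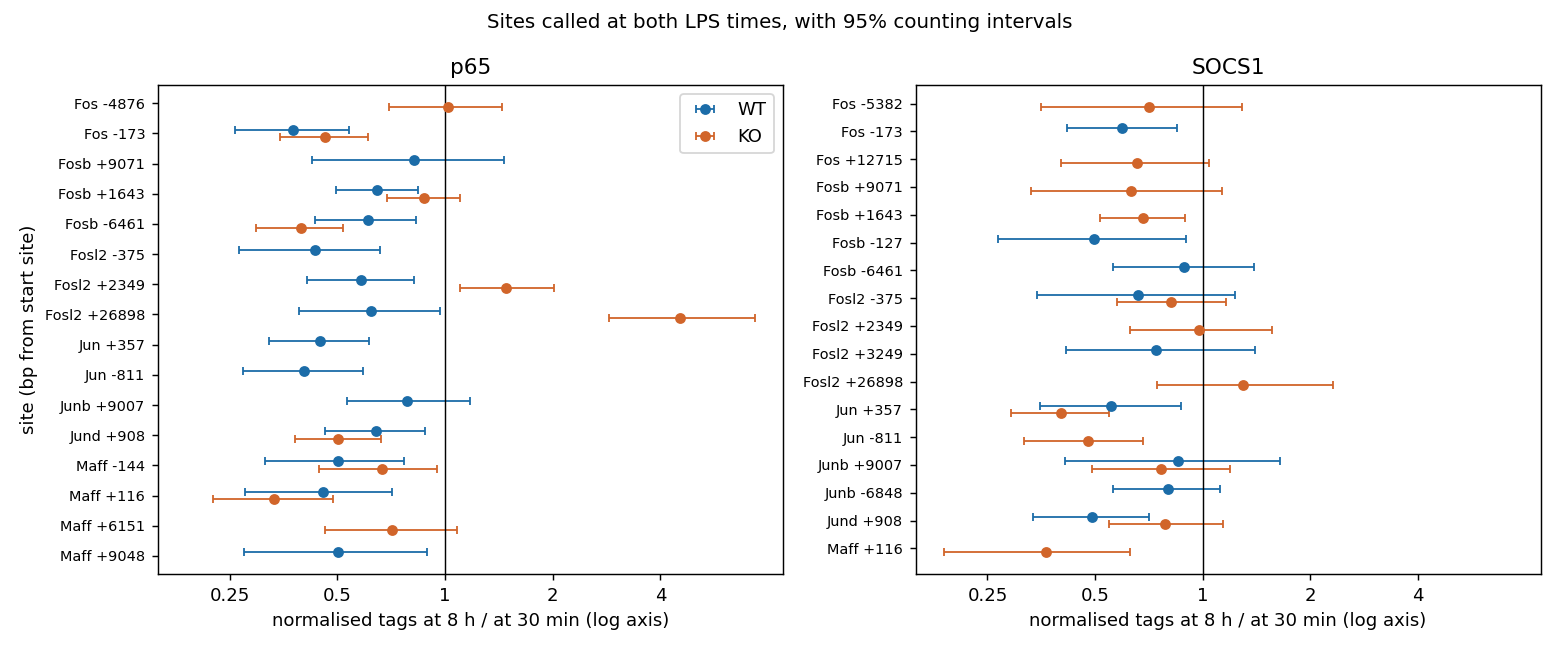
Ratio of the normalised tag count at 8 h to that at 30 min (x axis, log scale) at each site called at both times (y axis, named by bp from the start site), for p65 on the left and SOCS1 on the right. Points are single sites in WT (blue) or KO (orange) cells and bars are exact 95% counting intervals. All 14 WT points for p65 lie below 1, whereas the KO point of Fosl2 at 26898 bp lies at 4.55.

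The SOCS1 values followed the same order of times. In WT cells 9 of 9 sites called at both LPS times were lower at 8 h, where 74.9% of all sites were, and the median ratio of 0.659 was near the 0.717 of all sites. In KO cells 11 of 12 were lower (72%), with medians of 0.694 and 0.771, but 5 of 12 by scaled score. Against control cells, 4 of 4 SOCS1 sites in WT cells were higher at 30 min (52.5%), by 1.09 to 1.55 times. In KO cells 7 of 7 were higher (49.1%), among them Jun at 357 bp with 2.67 times (1.96 to 3.69) and Fosl2 at 375 bp upstream with 2.35 times (1.55 to 3.7). The intervals of 3 of those 7 ratios lay above 1, and at 1 of the 7, the Fos promoter, the peaks did not overlap.

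Between genotypes, p65 values at 30 min differed in both directions, and SOCS1 tag counts were mostly higher in KO cells. For p65 at 30 min, 17 sites were called in both genotypes, 7 higher in KO cells (50.3% of all sites) and 10 lower (49.3%), with a median ratio of 0.92 against 1.0 over all sites. At 8 h 10 of 10 p65 sites had a higher tag count in KO cells (89.3%), but per bp of peak width 2 of 10 did. For SOCS1 at 30 min, 8 of 9 sites were higher in KO cells (79.2%) and 5 at least 2-fold higher (27.9%), and Jund was the exception at 0.882 (0.64 to 1.2). The median ratio was 2.72 at the members and 1.5 over all sites, or 1.55 and 0.856 per bp, since KO peaks were 396 bp wide and WT peaks 227 bp. At 8 h 9 of 9 SOCS1 sites were higher in KO cells (85.6%), 6 of them at least 2-fold (27.7%), and 7 of 9 were higher per bp. In control cells 4 of 4 were higher (82%), with a median of 1.49 against 1.55 over all sites.

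From 33.3% to 50% of the p65 peaks at the genes overlapped a SOCS1 peak of the same cells. In WT cells 11 of 22 p65 peaks at the genes overlapped a SOCS1 peak at 30 min (50%, 28.2 to 71.8), beside 28.9% of all p65 peaks, and 11 of 23 at 8 h (47.8%, 26.8 to 69.4), beside 29.3%. All 8 genes had such a shared peak at 30 min and 6 did at 8 h, all but Atf3 and Maff. In WT control cells 1 of 3 p65 peaks did, at Junb, beside 24.9% of all p65 peaks of that list. The KO counts were 4 of 12 in control cells (33.3%, against 36.9% of all), 11 of 29 at 30 min (37.9%, 20.7 to 57.7, against 27.9%) and 6 of 13 at 8 h (46.2%, against 34.0%). As a share of the SOCS1 peaks, the overlap at 30 min was 50% of 22 in WT cells, beside 53.1% of all SOCS1 peaks. It was 61.1% of 18 in KO cells, beside 60.1%.

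Many of the peaks were shallow relative to their surroundings. The median fold over the surrounding 10 kb was 5.87 at the 8 genes and 8.71 over all peaks, and 71 of 193 peaks (36.8%) were under 5-fold, compared with 12.3% of all. Fosb (median 13.59) and Jund (10.79) stood above the series, and the other 6 genes below it, Maff at 6.305, Jun at 5.49, Fos at 5.42, Fosl2 at 5.275, Atf3 at 4.69 and Junb at 4.66, with 17 of 23 Junb peaks under 5-fold. When only peaks of at least 8-fold were kept, the p65 lists of WT cells called 0 of 8 genes without LPS (20% of all genes), 6 after 30 min (51.4%) and 6 after 8 h (45.6%). The same limit left 1 gene, Fosb, in the p65 KO list at 8 h (32.6%) and 2 genes, Fosb and Jund, in the SOCS1 WT control list (24.8%).

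**Figure D4:**
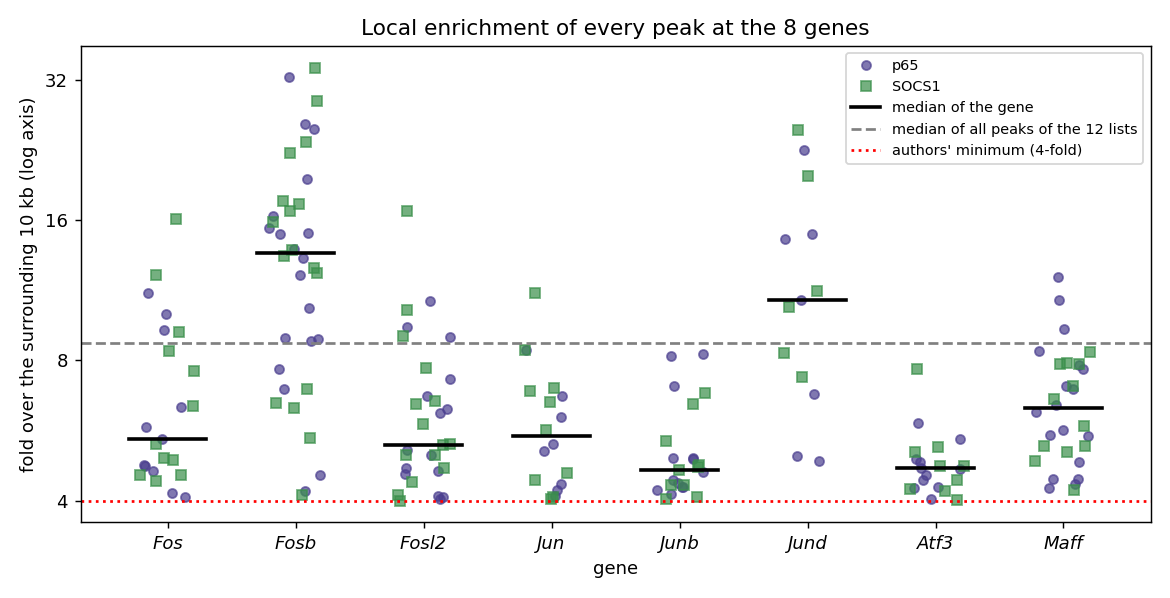
Fold of each of the 193 peaks over the surrounding 10 kb, as given by the authors (y axis, log scale), by gene (x axis), with p65 as circles and SOCS1 as squares, spread sideways for visibility. Black bars are gene medians, the dashed line the median of all peaks (8.71) and the dotted line the authors' minimum of 4. Fosb and Jund have medians above the dashed line, and Junb and Atf3 lie closest to the dotted line.

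The genes differed in their profile across the lists. As a description over the 12 lists, which share antibodies and cells, the log2 of the highest value per list (with 1 added, and 0 without a peak) gave r = 0.98 between Fosb and Jun and between Fosb and Fosl2, and -0.23 between Junb and Atf3. Lists without a peak set much of these values. Among 11869 genes with a peak in at least 6 lists, genes among the most like each were Atp6v1d and Eif2s1 for Fos (both r = 0.983), Map7d1 and Trappc3 for Fosb (both 0.987), Ccdc57 (0.988) and Adprh (0.986) for Fosl2, and Cdkl3 (0.985) for Jun. They were Pomp (0.957) and Nop56 (0.95) for Junb, Ppp2r5a (0.994) and Cdca3 (0.992) for Jund, Slc30a3 (0.986) and Bmpr2 (0.985) for Atf3, and Mymx (0.985) and Twistnb (0.984) for Maff. Among those most like the mean profile of the 8 were Tspan1, 1700042G07Rik, Ndufs7 and Gamt (all r = 0.949).

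Other genes of the network were counted in the same way. Of 23 other AP-1 and related leucine zipper genes, the WT lists of p65 (control, 30 min, 8 h) called 12, 23 and 22 and the KO lists 15, 23 and 21. For SOCS1 the counts were 16, 22 and 18 in WT and 20, 21 and 19 in KO cells. Of all genes, the p65 lists called 32.7%, 61.9% and 55.9% in WT and 35.8%, 65.4% and 55.5% in KO cells. The SOCS1 lists called 32.4%, 47.7% and 38.6% in WT and 55.3%, 51% and 44.6% in KO cells. These shares also belong beside the MAP kinase counts below. Batf, a partner of JUN proteins, had the highest value. Its p65 values were 253.0 and 568.5 at 30 min and 8 h in WT cells, an order of times that differed from that of Fos. In KO cells they were 331.5 and 350.9, from peaks 222 and 493 bp wide, so their order was not compared. These are the highest values in the gene window and need not come from the same site. Atf7 reached 183.7 (SOCS1, WT, 30 min) and Atf5 152.8 (p65, WT, 30 min). Of 19 MAP kinase pathway genes upstream of AP-1, 10, 19 and 18 had a p65 peak in WT cells and 16, 19 and 17 in KO cells, and the SOCS1 counts were 10, 18 and 16 in WT and 17, 17 and 14 in KO cells. The highest were Map2k3, a kinase that activates p38 (222.3), Map3k8, the kinase TPL2 (215.9), and Map2k6, another p38 kinase activator (213.2). Each was for p65 in KO cells at 8 h, the list with the widest peaks.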

How the data were processed

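The members and gene lists were chosen with earlier results of these data known. The labels list 20 samples. The 12 p65 and SOCS1 peak lists were used. The 6 IgG libraries served only as background in those lists, and the 2 internal controls were not analysed here. Reads were processed with cutadapt, Bowtie2 2.4.1 and HOMER 4.11 on mm10, per the submitters' processing notes. Each list was called on 1 library with its matching IgG library as control, per the file headers, with an FDR of 0.001, 4-fold enrichment over IgG and over the local 10 kb, a Poisson p of 0.0001 and a clonal limit of 2. The signal is, per the file headers, the normalised tag count, scaled by the authors to 10000000 tags. The deposited score is the number of tags at no more than 1 per bp, not scaled to depth. The deposited ratio values are the authors' fold over IgG, over the local region and over the clonal expectation. The deposited p-value columns are Poisson values that are not adjusted, and the deposited fraction is the focus ratio of a peak; neither was used for a result. No spike-in scaling was applied.

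Peaks were linked to genes of RefSeq GRCm38.p6 (mm10). Where a list had several peaks in a site, the highest counted. Ratios have exact binomial 95% intervals on tags rounded to whole numbers, shares exact Clopper-Pearson intervals, and both treat tags or peaks as independent. Named in full were, for each gene, the sites highest in any p65 and any SOCS1 list and those in at least 8 lists, with the 2 most similar genes by Pearson r and the 3 highest genes of each list; other sites described were chosen after their values were seen. Markers were Adgre1, Csf1r, Spi1, Cd68, Lyz2, Itgam, Mertk and Fcgr1 (macrophage), and Ly6g, Mpo, Elane, S100a8, S100a9 and Camp (neutrophil). A lymphocyte marker list and 1 of the most similar genes are not reported here. Alternatives were windows of 5 and 25 kb, stricter peaks, other joining of peaks and other measures of height. The steps were tested on simulated data and run in Python 3.11.15 with numpy 2.4.6, pandas 2.3.3, scipy 1.17.1 and matplotlib 3.10.9. Exons, introns and sequences of distal sites were not analysed here.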

Additional observations from a re-analysis of the deposited data

Results flagged for a closer look

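At 2 sites of Fosl2 the p65 values after LPS went in opposite directions in the 2 genotypes, and the difference was not tested because each value comes from 1 library. At the site inside the gene, 2349 bp from the start, the ratio of 8 h to 30 min was 0.582 in WT and 1.48 in KO cells. At the site 26898 bp downstream of the start it was 0.619 in WT and 4.55 in KO cells. Per bp of peak width the KO ratios were 0.668 and 2.05, so the KO ratio stayed above 1 at the second site alone. The 2 WT peaks at that second site did not overlap, so its WT ratio compares different places. The peaks joined there had centres 720 bp apart in WT and 336 bp apart in KO cells.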

How the results depend on the processing

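No paired analysis was possible because each group has 1 library. With only peaks at least 8-fold over the local background, the number of genes with a p65 peak went from 3 to 0 in WT control cells (20% of all genes), from 7 to 3, 8 to 5 and 7 to 1 in the KO lists (control, 30 min, 8 h; 25%, 57.4% and 32.6%). For SOCS1 it went from 8 to 2, 8 to 3 and 6 to 3 in WT (24.8%, 41.4% and 28.8%) and from 7 to 4, 8 to 5 and 8 to 3 in KO cells (45.7%, 41.7% and 30.6%). By scaled score, 4 rather than 7 p65 sites and 5 rather than 11 SOCS1 sites were lower at 8 h than at 30 min in KO cells. Per bp of peak width, 6 rather than 10 p65 sites were lower in KO than in WT cells at 30 min, 2 rather than 10 were higher at 8 h, and 5 rather than 8 SOCS1 sites were higher at 30 min. Counting only sites whose peaks overlap between the 2 lists, an alternative chosen after seeing the data, kept all 10 counts of sites within 1.5 times. The other 93 of 108 alternatives to the counts and shares stayed within 1.5 times of the reported value or, for shares, within their interval. Of 258 alternatives to single sites, 59 lay outside the counting interval of the reported ratio. The sign on the log2 scale changed in 28, 14 by scaled score and 14 per bp, and in 10 of these the reported interval excluded a ratio of 1. By scaled score the latter were Fos 173 bp upstream (p65 in KO cells, 8 h over 30 min, -1.11 to 0.04; KO over WT at 30 min, 0.31 to -0.04), Jund (p65, KO over WT at 30 min, 0.50 to -0.10), Fosb inside the gene (SOCS1 in KO cells, 8 h over 30 min, -0.55 to 0.20) and Fosb 6461 bp upstream (SOCS1, KO over WT, 0.77 to -0.15 in control cells and 0.76 to -0.16 at 30 min). Per bp of peak width they were Fosl2 at 2349 bp (p65 in KO cells, 8 h over 30 min, 0.57 to -0.58; KO over WT at 8 h, 0.69 to -0.36), Fos (p65, KO over WT at 8 h, 0.61 to -0.44) and Fosb 6461 bp upstream (SOCS1, KO over WT at 30 min, 0.76 to -0.04). The cause of these changes was not tested beyond the widths given above. The lowest tag count called in a list limits what could be seen at weak sites.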
